A study of Mus musculus with 6 samples.

Results

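The mRNAs of 5 RNA-binding proteins, Msi2, Hnrnpa3, Hnrnpa2b1, Dazap1 and Hnrnpab, were examined in mouse macrophages (Mφs) in which a tRNA fragment had been targeted. The study reports that these proteins bind it in other cells. They are the RNA-binding proteins that the study names as most enriched in pull-downs with a labelled copy of 5′tRF-Glu(CTC), a piece cut from the start of a glutamate tRNA, in both β-cells and Mφs cultured with them. The study also made a pull-down in anti-inflammatory Mφs, the kind measured here, and some of the proteins found were shared with β-cells. Which of the 5 were among them is not stated in the text used here. They were picked by gene symbol out of a table of 41549 genes. The rule uses no expression value, although earlier results of these data were known when they were chosen. All 5 passed the filter on low counts, as did 11933 genes in all.

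Bone marrow cells of adult wild-type C57Bl/6N mice were differentiated into naïve Mφs with macrophage colony-stimulating factor. They were transfected either with a locked nucleic acid antisense against 5′tRF-Glu(CTC), here αGlu, or with a control antisense, here Ctr, and IL-4 and IL-13 were then added to bring about the anti-inflammatory M2 phenotype. Both groups therefore received an oligonucleotide and both cytokines. Each group had 3 stranded mRNA libraries, described by the study as independent experiments. The fragment itself is too short for these libraries and was not measured in them, so how far it was blocked in each library is not known from these data, and the proteins were not measured either.

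Msi2 is a Musashi protein, known for repressing or stabilizing target mRNAs in the cytoplasm and for its role in haematopoietic stem cells. Hnrnpa3, Hnrnpa2b1 and Hnrnpab are heterogeneous nuclear ribonucleoproteins (hnRNPs), which coat new transcripts and act in splicing, export and transport of mRNA, and Dazap1 is a related factor in splicing and translation. All 5 carry a pair of RNA recognition motifs, and Musashi and hnRNP A/B proteins are known to prefer RNA with a UAG core.

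The oligonucleotide and the part of the fragment it was designed on are given because they define the αGlu group and hold such a core. Capitals in the fragment mark the bases complementary to the antisense, both are written 5′ to 3′ as DNA, and the antisense is wholly complementary.
5′tRF-Glu(CTC) target: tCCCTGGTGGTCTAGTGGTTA
αGlu antisense: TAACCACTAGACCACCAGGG
The antisense pairs with 20 of the 21 listed bases, from base 2 on. The listed bases hold 1 TAG, at base 13. By the study's account the fragment is longer than the listed bases, and the rest of it was not searched. As a measure of how common these letters are in small RNAs, UAG occurred in 397 of 1674 distinct mature mouse miRNA sequences of RefSeq, which is 23.7%, at a median length of 22 bases. The longest run of fragment bases in the annotated transcripts of the 5 genes was 8 in Msi2, 9 in Hnrnpa3, Hnrnpa2b1 and Hnrnpab, and 7 in Dazap1. A run of at least 9 was found in 19.7% of 11923 tested genes with an annotated transcript, and the longest in any of them was 13. Only exact runs in annotated transcripts were searched, and pairing of the antisense with the 5 mRNAs was not tested.

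The libraries held between 17912831 counts in αGlu 1 and 30386653 in αGlu 2. Across the genes tested, log2 counts-per-million (CPM) values of αGlu 1 correlated with the Ctr libraries at a Pearson r of 0.966 to 0.982 and with αGlu 2 and 3 at 0.9285 and 0.9292, so αGlu 1 stood with the Ctr libraries. The tests of the 5 genes are therefore given with and without αGlu 1. Because αGlu 1 was singled out by the same expression values that are tested, leaving it out raises differences between groups by itself. Adjusted p and numbers of genes called without αGlu 1 are therefore descriptive only. Of 7 macrophage markers, 5 had a log2 fold change above 0. Csf1r, the receptor for macrophage colony-stimulating factor, and Adgre1, both of these 5, were at 2400.3 to 3054.5 CPM and 822 to 1595 CPM. Cd68 went the other way, with 1809 to 2063 CPM in Ctr and 1990, 1237 and 1144 CPM in αGlu 1, 2 and 3. Summed levels did not exceed 0.346 CPM for 6 lymphocyte markers, 2.34 CPM for 5 dendritic cell markers, 3.68 CPM for 6 neutrophil markers and 7.18 CPM for 6 fibroblast markers. The 6 IL-4/IL-13 response markers differed in direction, 4 with a log2 fold change above 0 and 2 below. Arg1 was at 23.5 to 45.2 CPM in Ctr and αGlu 1 and at 1886 and 1792 CPM in αGlu 2 and 3, whereas the Ctr libraries held 245 to 540 CPM of Retnla and αGlu 1, 2 and 3 held 101, 0.0315 and 0.0367. The summed level of 10 proliferation markers was 560 to 719 CPM in Ctr and 298 to 402 CPM in αGlu, and of 8 haematopoietic progenitor markers 6.64 to 9.63 CPM and 2.79 to 4.87 CPM, with Flt3 at 0 in 5 of the 6 libraries. Both sums were lower in all 3 αGlu libraries than in any Ctr library. Pcna made up most of the proliferation sum in Ctr, at 448 to 505 CPM, and was at 327, 125 and 120 CPM in αGlu 1, 2 and 3. The other 9 markers summed to 112 to 213 CPM in Ctr and to 75.8, 173 and 211 CPM in αGlu 1, 2 and 3, which overlap. Mki67, at 13.2 to 49.2 CPM in Ctr, was at 11.9, 108 and 138 CPM in αGlu 1, 2 and 3. Mki67 is 1 of these 9, and it alone of the 10 had a log2 fold change above 0. Groups did not overlap for 6 of the 10, all lower in αGlu, beside 30.2% of all genes. The part of these markers in the levels of the 5 genes was not tested. In bulk RNA, fewer cells of a type and less RNA per cell cannot be told apart.

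The 5 mRNAs spanned a wide range of abundance in M2 Mφs. By transcripts-per-million (TPM) values, which are scaled by gene length, the order in Ctr was Hnrnpa2b1 with 251 ± 9.96 (SD, n = 3), Hnrnpab with 213 ± 9.97, Hnrnpa3 with 118 ± 3.55, Dazap1 with 38.0 ± 4.04 and Msi2 with 1.98 ± 0.323. No 2 neighbours in this order overlapped in any library of either group. The order was the same in αGlu, with 277 ± 34.3, 203 ± 4.27, 107 ± 12.4, 40.6 ± 2.78 and 3.22 ± 0.867 TPM (SD, n = 3). By mean TPM, Hnrnpa2b1 stood at percentile 95.7 of the genes tested, Hnrnpab at 94.6, Hnrnpa3 at 89.7, Dazap1 at 72.6 and Msi2 at only 16.2. The second Musashi gene, Msi1, had no count in 5 libraries and 1 count in αGlu 3, below the 3 counts taken here as the least that is distinguishable from 0, so nearly all Musashi mRNA counted in these cells was Msi2.

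**Figure D1:**
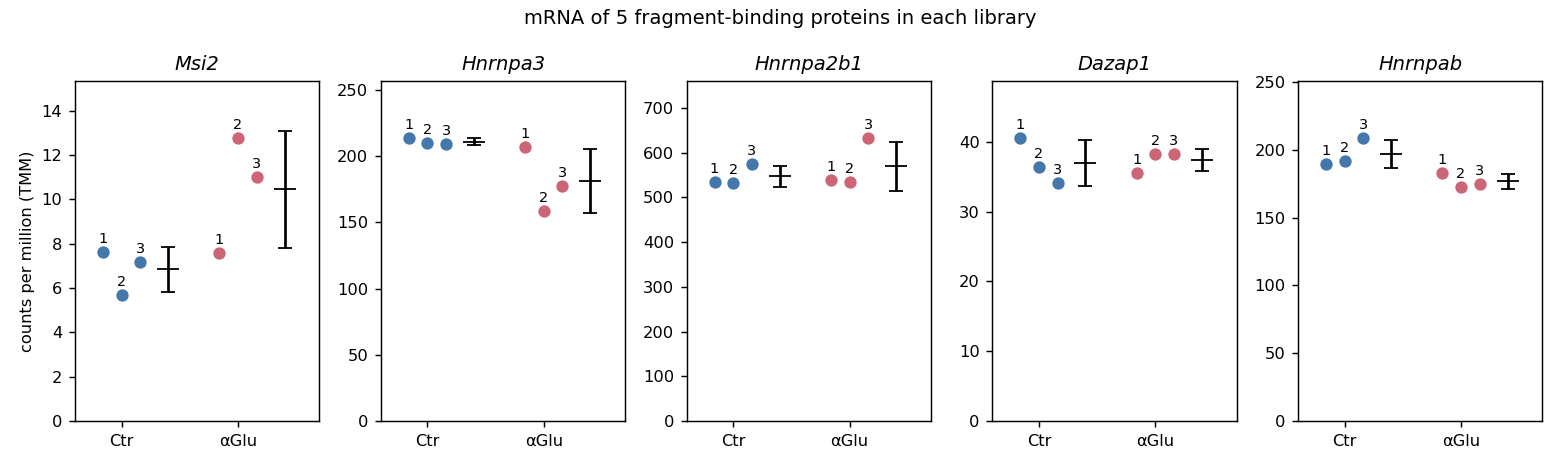
Level of each gene in CPM with trimmed mean of M-values (TMM) scaling (vertical axis, from 0) in the 3 Ctr and 3 αGlu libraries, numbered by replicate. The bars beside the points give the mean ± SD of each group. Msi2 of αGlu 1 lies among the Ctr libraries and that of αGlu 2 and 3 above them, while Hnrnpa3 of αGlu 2 and 3 lies below all Ctr libraries.

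Msi2 showed the largest difference of the 5. Its gene lies on chromosome 11 on the minus strand (GRCm38, chr11:88339382-88718513, GENCODE M21). Msi2 was at 7.63, 5.68 and 7.19 CPM in Ctr 1, 2 and 3 and at 7.57, 12.8 and 11 CPM in αGlu 1, 2 and 3. αGlu 2 and 3 were above all Ctr libraries, and αGlu 1 lay within the Ctr range, so the groups overlapped. The counts behind these values were 168, 136 and 155 in Ctr and 132, 406 and 300 in αGlu, which gives exact Poisson 95% intervals of 6.52 to 8.88 CPM in Ctr 1, the highest of its group, and 9.79 to 12.3 CPM in αGlu 3. The counting error of these libraries therefore did not cover the gap between Ctr 1 and αGlu 3, although such intervals leave out all variation between cultures. Mean levels were 6.84 ± 1.02 CPM in Ctr and 10.5 ± 2.65 CPM in αGlu (SD, n = 3), which corresponds to a log2 fold change of 0.62 ± 0.23 (SE) with a 95% interval from 0.06 to 1.17. In edgeR's quasi-likelihood test the unadjusted p was 0.0348 and the Benjamini-Hochberg adjusted p over all genes was 0.181, which did not pass the threshold of 0.1. Without αGlu 1, left out for its likeness to Ctr, the log2 fold change was 0.80. The adjusted p in the same test was then 0.00948, which is descriptive only.

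Hnrnpa3 had a difference of the opposite sign. The gene lies on the plus strand of chromosome 2 (GRCm38, chr2:75659261-75669407) and encodes an hnRNP of the A/B family that acts in cytoplasmic trafficking of RNA. Its level was 214, 210 and 210 CPM in Ctr 1, 2 and 3 and 207, 159 and 178 CPM in αGlu 1, 2 and 3. The Ctr libraries were nearly equal, αGlu 1 was just below them, and αGlu 2 and 3 were clearly lower. The spread was accordingly unequal, with means of 211 ± 2.56 CPM for Ctr and 181 ± 24.2 CPM for αGlu (SD, n = 3). The log2 fold change was -0.22 ± 0.12 (SE), with a 95% interval from -0.51 to 0.07 and an adjusted p of 0.279 in edgeR's quasi-likelihood test. Without αGlu 1 it was -0.33, with an adjusted p of 0.0249. Of all windows of 50 bases in the annotated Hnrnpa3 transcripts, 27.1% occur also in other annotated genes, 43 in number and led by the gene model Gm5641. How the authors' counting assigned reads that fit several places was not given in the sources used here, and the level of Hnrnpa3 is therefore uncertain to that extent. No such window was shared by Msi2 or Dazap1, and 0.591% and 0.142% were shared by Hnrnpa2b1 and Hnrnpab.

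Since Msi2 and Hnrnpa3 differed from Ctr in opposite directions in αGlu 2 and 3, their ratio within a library, which needs no scaling between libraries, set αGlu 2 and 3 further from Ctr. There were 35.7, 27.1 and 34.3 counts of Msi2 per 1000 counts of Hnrnpa3 in Ctr 1, 2 and 3. In αGlu 1, 2 and 3 there were 36.6, 80.5 and 62.0. αGlu 2 and 3 were above all Ctr libraries by far. αGlu 1 was above Ctr 1 by less than the counting error of Msi2, 8.7% in αGlu 1 and 7.72% in Ctr 1, so it was not distinguishable from Ctr. How many other pairs of genes separate the groups in this way was not counted. This ratio was chosen after the values were seen and was not tested.

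Hnrnpab, which lies on the minus strand of chromosome 11 (GRCm38, chr11:51600100-51606847) and binds AU-rich mRNA and DNA, was at 190, 192 and 209 CPM in Ctr 1, 2 and 3. In αGlu 1, 2 and 3 it was at 183, 172 and 175 CPM. All αGlu libraries were below all Ctr libraries, but the gap between αGlu 1 and Ctr 1 was small beside the spread within Ctr. The means were 197 ± 10.5 and 177 ± 5.49 CPM (SD, n = 3). The log2 fold change was -0.16 ± 0.09 (SE), its 95% interval ran from -0.36 to 0.05, and the adjusted p was 0.288 in edgeR's quasi-likelihood test. Hnrnpab did not pass without αGlu 1 either, at a log2 fold change of -0.19 and an adjusted p of 0.130 in that test. Both values are descriptive only. The gene Phykpl overlaps it on the opposite strand, with 482 counts over the 6 libraries against 26695 for Hnrnpab, and the library kit keeps the strand.

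Hnrnpa2b1, the most abundant of the 5, encodes a pair of nuclear proteins known to read N6-methyladenosine marks and to sort small RNAs into exosomes. It lies on the minus strand of chromosome 6 (GRCm38, chr6:51460932-51469894). Its level was 535, 532 and 574 CPM in Ctr 1, 2 and 3 and 539, 536 and 634 CPM in αGlu 1, 2 and 3. The groups overlapped and αGlu 3 alone was above the Ctr range. The log2 fold change was 0.06 ± 0.12 (SE), with an adjusted p of 0.772 in edgeR's quasi-likelihood test. The 95% interval ran from 0.849-fold to 1.28-fold, so a change within these bounds was not excluded with 3 libraries a group.

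Dazap1 lies on the plus strand of chromosome 10 (GRCm38, chr10:80261486-80288408). It was at 40.6, 36.4 and 34.1 CPM in Ctr 1, 2 and 3 and at 35.6, 38.3 and 38.3 CPM in αGlu 1, 2 and 3. The αGlu values lay wholly inside the Ctr range. Its log2 fold change of 0.01 ± 0.09 (SE) had the highest adjusted p of the 5, 0.928 in edgeR's quasi-likelihood test, and a 95% interval from 0.869-fold to 1.17-fold. Without αGlu 1 the log2 fold changes of Hnrnpa2b1 and Dazap1 were 0.09 and 0.04, with adjusted p of 0.531 and 0.732 in that test.

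**Figure D2:**
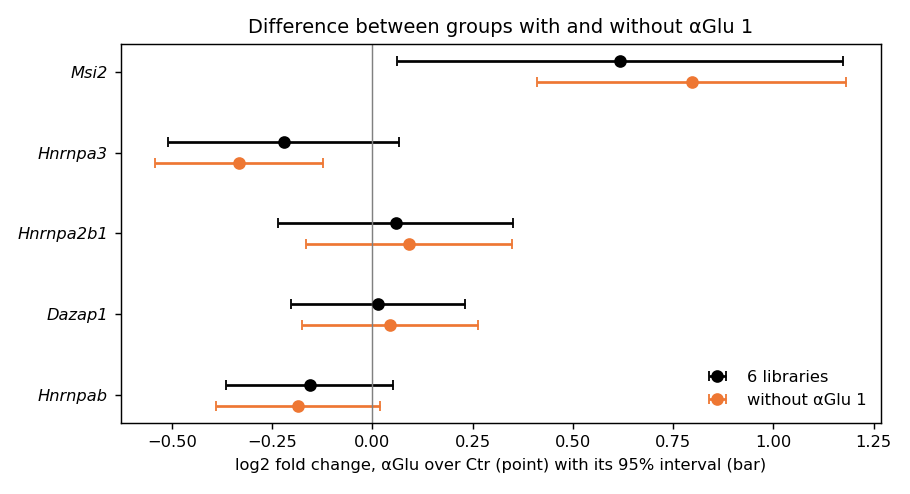
Log2 fold change of αGlu over Ctr (horizontal axis) with its 95% interval for each of the 5 genes, from all 6 libraries (black) and without αGlu 1 (orange). The intervals of Msi2 lie above 0 in both fits, that of Hnrnpa3 lies below 0 only without αGlu 1, and those of the other 3 genes include 0 in both.

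In total, 0 of the 5 genes passed edgeR's quasi-likelihood test at an adjusted p under 0.1, where the share of all genes called was 0% of 11933. At an unadjusted p under 0.05 it was 1 of 5, Msi2, beside 24.7% of all genes. DESeq2, which called 15.9% of 13707 genes, and limma-voom, which called 0%, also called none of the 5, and neither did limma on log2 of the deposited TPM, which called 0.0168% of all genes. Without αGlu 1 there were 2 of 5 called, Msi2 higher and Hnrnpa3 lower, where 49.1% of 12340 genes were called, 23.5% higher and 25.6% lower. A share of 2 in 5 was thus near the background, and the 5 genes as a group did not stand apart from other genes. Their median absolute log2 fold change was 0.16 with all libraries, against 0.24 over all genes, and 0.19 against 0.33 without αGlu 1. The related lists of RNA-binding proteins given below had 0.11 to 0.16 with all libraries, so a small median was not particular to the 5 genes.

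Groups did not overlap for 2 of the 5 genes, Hnrnpa3 and Hnrnpab, both lower in αGlu, beside 30.2% of all genes on the same scale. αGlu 2 and 3 on their own lay outside the Ctr range for Msi2 too, making 3 of 5 beside 65.8% of all genes. The count with all libraries depended on the scaling. With CPM by library size alone, and with the deposited TPM, the groups of all 5 genes overlapped, where 30.9% and 33.2% of all genes did not. In an exact two-sided permutation test of log2 CPM, which cannot go below p = 0.1 with 3 libraries against 3, Hnrnpa3 and Hnrnpab reached p = 0.1, Msi2 p = 0.2, Hnrnpa2b1 p = 0.5 and Dazap1 p = 1.

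The sum of the 5 genes was nearly the same in all libraries, at 627, 601 and 638 TPM in Ctr 1, 2 and 3 and at 617, 599 and 677 TPM in αGlu 1, 2 and 3. Hnrnpa3 made up 18.2% to 19.5% of this sum in Ctr and αGlu 1 and 15.7% and 16% in αGlu 2 and 3. Hnrnpa2b1 made up 39.9% to 41.2% in Ctr and αGlu 1 and 43.5% and 46.7% in αGlu 2 and 3. Msi2 never exceeded 0.657%.

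Across the 6 libraries the log2 CPM of Msi2 and Hnrnpa3 ran opposite, with a Pearson r of -0.92, and Hnrnpab ran with Hnrnpa3 at 0.77 and against Msi2 at -0.75. These values describe 6 libraries of which αGlu 2 and 3 stand apart, and many genes share such a pattern. For Msi2, 5.35% of 5045 genes of at least moderate level (mean log2 CPM of at least 5) had an r above 0.9, and for Hnrnpa3 15.7% of 5044 did. The share was 1.69% for Hnrnpab, 0.416% for Dazap1 and 0.297% for Hnrnpa2b1.

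The genes most alike in pattern were, for Msi2, Mthfd2, a mitochondrial enzyme of folate metabolism, at an r of 0.992 over 6 libraries, and Gsr, glutathione reductase, at 0.989. The Ctr libraries held 30.8, 17.8 and 24.2 CPM of Mthfd2 and the αGlu libraries 29.5, 68.8 and 61.1, with αGlu 1 among Ctr. Such likeness follows from the pick by r, here and for the other genes named. For Hnrnpa3 they were Idh1, the cytosolic NADP-dependent isocitrate dehydrogenase, at 0.996, and Smap2, an Arf GTPase-activating protein, at 0.992. The Ctr libraries held 406, 357 and 380 CPM of Idh1 and the αGlu libraries 360, 165 and 215. Hnrnpab was followed by Hsbp1, which binds heat shock factor, and Srd5a3, a polyprenol reductase of protein glycosylation, both at 0.989 after rounding. Hnrnpa2b1 was followed by Rpl27, a ribosomal protein, at 0.973 and by Ptbp3, a splicing regulator, at 0.957. Dazap1 was followed by Txlna at 0.991 and by Gnpat, a peroxisomal enzyme of ether lipid synthesis, at 0.979. None of these 10 genes passed edgeR's quasi-likelihood test with all libraries, where the smallest adjusted p among them was 0.162, for Mthfd2.

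Within the hnRNP A/B family, the gene that differed most from Ctr was not one of the binding proteins chosen but their paralog Hnrnpa1. Hnrnpa1 was at 131, 122 and 122 CPM in Ctr 1, 2 and 3 and at 140, 217 and 243 CPM in αGlu 1, 2 and 3. All αGlu libraries were above all Ctr libraries, αGlu 1 by little. Its log2 fold change was 0.68 ± 0.21 (SE), with an adjusted p of 0.160 in edgeR's quasi-likelihood test with all libraries and 0.0007 without αGlu 1, and DESeq2 gave 0.0457. Like Hnrnpa3, Hnrnpa1 shares sequence with other annotated genes, in 28.2% of its windows of 50 bases, which makes its level uncertain in the same way. By TPM, Hnrnpa1 took 21.3% to 24.8% of the summed level of Hnrnpa0, Hnrnpa1, Hnrnpa2b1 and Hnrnpa3 in Ctr and αGlu 1 and 35.8% and 35.1% in αGlu 2 and 3. Hnrnpa3 took 21.4% to 22.3% and 15.3% and 15%, so that the near equality of the 2 genes in Ctr was lost in αGlu 2 and 3.

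**Figure D3:**
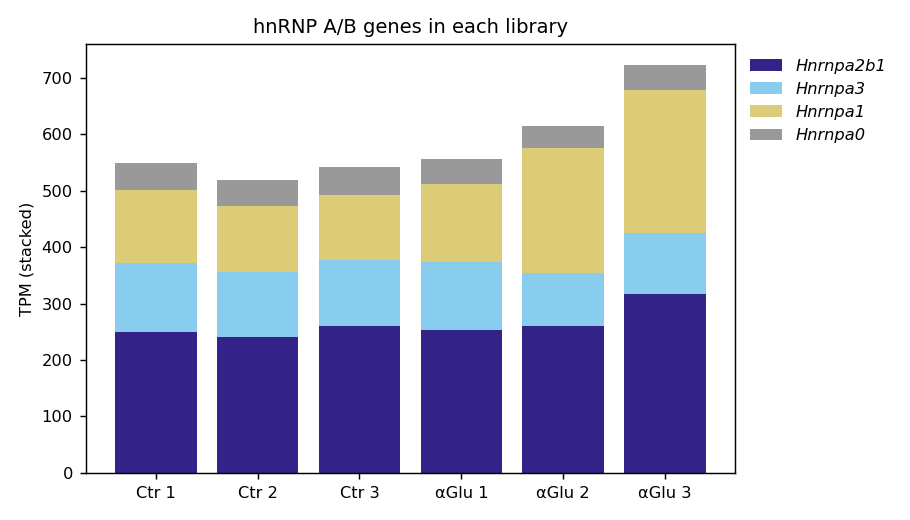
TPM of the 4 hnRNP A/B genes, stacked (vertical axis, from 0), in each of the 6 libraries. The Hnrnpa1 part is 116 to 138 TPM in Ctr and αGlu 1 and 220 to 254 TPM in αGlu 2 and 3, while the Hnrnpa3 part is 94.3 to 122 TPM throughout.

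Among the other hnRNP genes, 23 of 24 were tested, all but Msi1, which was kept in this list as the paralog of Msi2. None passed with all libraries. Groups did not overlap for 3 genes higher and 3 lower in αGlu, beside 30.2% of all genes. Their median log2 fold change was 0.02, the same as the 0.02 over all genes. Besides Hnrnpa1, the smallest unadjusted p belonged to Hnrnpll, a regulator of CD45 splicing in lymphocytes, whose CPM was 81.0, 85.3 and 94.0 in the Ctr libraries and 101, 104 and 118 in the αGlu libraries. Its log2 fold change was 0.31 ± 0.10 (SE), with an adjusted p of 0.163 in edgeR's quasi-likelihood test. Hnrnpf, the most abundant by TPM and a binder of G tracts, had CPM values of 437, 437 and 452 under Ctr and of 422, 370 and 397 under αGlu, for a log2 fold change of -0.16. Without αGlu 1, edgeR called 10 of the 23, 5 higher and 5 lower, again near the 49.1% of all genes.

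Other RNA-binding proteins were set beside the 5 genes by class, and with all libraries edgeR called none in any class. Apart from the most abundant gene of each class, the genes named were picked for the smallest unadjusted p. Separation of their groups therefore follows from the pick. Groups did not overlap for 30.2% of all genes. In the FET and paraspeckle list all 8 genes were tested, with a median log2 fold change of -0.10. Groups did not overlap for 2 genes higher and 2 lower in αGlu. The CPM of Taf15 was 36.6, 37.4 and 34.2 in the Ctr libraries and 46.4, 53.1 and 56.4 in the αGlu libraries. Taf15, with the smallest unadjusted p of the list, was above Ctr in all 3 αGlu libraries. Its log2 fold change was 0.53 ± 0.09 (SE), with an adjusted p of 0.149 in edgeR's quasi-likelihood test, and of 0.00176 with DESeq2. Nono, a paraspeckle protein and the most abundant of the list, had a log2 fold change of -0.10 and overlapping groups.

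The SR splicing factors, which bind exonic enhancers and often oppose hnRNPs, had 12 of 13 genes tested and a median log2 fold change of -0.13. Of the 12, 3 were above 0, and groups did not overlap for 3, all lower in αGlu. Srsf7 and Srsf2 had log2 fold changes of -0.27 and -0.44, both with all αGlu libraries below all Ctr libraries, and Srsf5, the most abundant, had 0.08 with overlapping groups. All 33 core spliceosome genes were tested, with a median of 0.03, and groups did not overlap for 5 higher and 4 lower in αGlu. Sf3a3 of the U2 particle and U2af1, which reads the 3′ splice site, had 0.39 and 0.32 and did not overlap between groups, and Snrpb, a protein of the Sm ring, had -0.17.

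The cytoplasmic mRNA-binding proteins, to which Msi2 is closest in known function, had 32 of 33 genes tested and a median log2 fold change of -0.07. Groups did not overlap for 3 genes higher and 7 lower in αGlu. Zfp36l1, which promotes decay of AU-rich mRNAs, had 81.0, 67.6 and 86.7 CPM under Ctr and 101, 411 and 429 under αGlu. Here too αGlu 1 was near Ctr, and the log2 fold change of 2.00 ± 0.54 (SE) had an adjusted p of 0.157 in edgeR's quasi-likelihood test with all libraries. The cold shock protein Ybx3 had 39.8, 37.8 and 40.3 CPM under Ctr and 29.3, 31.5 and 26 under αGlu, with no αGlu library among Ctr and a log2 fold change of -0.44 ± 0.09 (SE). Ybx1, the most abundant of the list, had -0.17. Without αGlu 1, where edgeR called 49.1% of all genes, it called 4 of 12 SR genes (0 higher, 4 lower), 9 of 33 spliceosome genes (5 higher, 4 lower), 4 of 8 FET and paraspeckle genes (1 higher, 3 lower) and 15 of 32 cytoplasmic genes (4 higher, 11 lower).

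**Figure D4:**
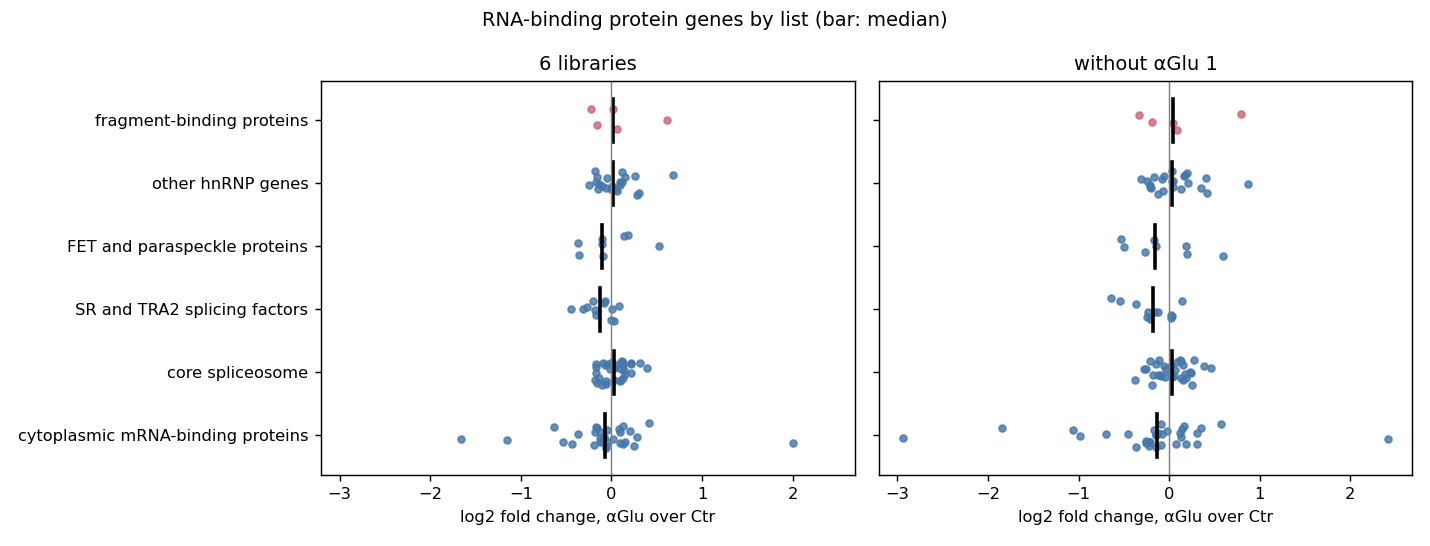
Log2 fold change of αGlu over Ctr (horizontal axis, the same in both panels) of each tested gene of the 6 lists, with a bar at the median of each list. The left panel uses all 6 libraries and the right panel leaves out αGlu 1. The medians lie between -0.13 and 0.03 on the left and between -0.18 and 0.04 on the right, and the points are spread more widely on the right.

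The starts of the 5 genes were compared because Hnrnpa3 and Msi2 differed from Ctr in opposite directions. From RefSeq (GRCm38.p6), 300 bases around the first listed start were taken, 250 before it and 50 after. All 5 were rich in CpG, with 28 to 45 CpG and a GC content of 58.3% to 76.3%, against medians of 7 and 52.7% over 27025 genes. On both strands, 5 motifs were searched, namely the CCAAT box (written as its name), the GC box with the letters GGGCGG, the TATA box with the letters TATAAA, the E box with the letters CACGTG and an ETS core with the letters CCGGAAG. The E box was in 3 of the 5, Msi2, Hnrnpa3 and Dazap1, beside 7.24% of all promoters and 11.9% of the 3786 promoters with at least 28 CpG. The CCAAT box was in 4 of 5, all but Dazap1, beside 37.9% of all and 29.1% of the CpG-rich ones, and the GC box in 4 of 5, all but Hnrnpa2b1, beside 35.9%, or 86.6% of the CpG-rich ones. The TATA box was in Hnrnpab alone, beside 14.2% of all and 3.12% of the CpG-rich ones. The ETS core, in 9.12% and 18.1%, was in none. The windows of Msi2 and Hnrnpa3 are printed on their own strand, with the E box in capitals, as those of the 2 genes that were called without αGlu 1.
Msi2, chr11:88718228-88718527, minus strand: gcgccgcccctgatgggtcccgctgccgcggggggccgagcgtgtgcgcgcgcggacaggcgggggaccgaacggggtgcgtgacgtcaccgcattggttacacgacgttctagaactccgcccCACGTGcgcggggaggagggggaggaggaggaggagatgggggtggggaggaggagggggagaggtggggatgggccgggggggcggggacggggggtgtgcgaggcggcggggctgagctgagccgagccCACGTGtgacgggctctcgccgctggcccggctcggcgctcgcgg
Hnrnpa3, chr2:75659009-75659308, plus strand: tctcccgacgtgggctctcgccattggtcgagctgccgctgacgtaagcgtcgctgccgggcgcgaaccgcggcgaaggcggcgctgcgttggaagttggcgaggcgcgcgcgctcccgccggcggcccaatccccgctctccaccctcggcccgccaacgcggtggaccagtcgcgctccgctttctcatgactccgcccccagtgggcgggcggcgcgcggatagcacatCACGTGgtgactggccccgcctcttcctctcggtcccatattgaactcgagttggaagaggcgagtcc
Msi2 held 2 E boxes and Hnrnpa3 held 1. Of the 3 starts listed for Msi2, only the first was searched. A part of the motif in the levels of these genes was not tested.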

How the data were processed

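Messenger RNA was measured in 6 libraries, 3 Ctr and 3 αGlu, grouped by their labels. The authors processed the reads with a QIAGEN portal and GRCm38, the build named in the submitters' processing notes. Neither the aligner and annotation nor the treatment of multiply matching reads is given in the sources used here. The authors deposited 4 values per gene and library: whole-number counts over exons without normalization, RPKM, TPM, and a CPM column, which is a signal that the authors obtained from counts and an effective library size and which was not used. The deposited RPKM was not used either.

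From the counts, genes were filtered with edgeR 4.0.16 in R 4.3.3 (filterByExpr, at least 10 counts in enough libraries and 15 in all), scaled by TMM and tested with a two-sided quasi-likelihood model that held the group alone. P-values were adjusted after Benjamini and Hochberg over all 11933 genes, at a threshold of 0.1. CPM uses TMM-scaled library sizes, and log2 CPM a prior count of 2. SE is the absolute fold change divided by the root of F. Alternatives were DESeq2 1.42.0, limma-voom (limma 3.58.1), other scalings and filters, log2 of the deposited TPM plus a pseudocount of 1, the replicate number as a block, other thresholds and each library left out in turn. Scales for the overlap of groups were added after the data had been seen. The code was tested on simulated data.

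Total counts were 17912831 to 30386653 per library, and each pair of libraries differed beyond sampling noise (chi-square per gene of at least 19.8). Poisson intervals cover counting error only. Labels give no separate cultures beyond replicate numbers, so p-values measure the spread between these libraries. The 5 genes, the lists and the tests were chosen with earlier results of these data known. Named genes are the 5, Msi1, of each related list the 2 smallest unadjusted p and the highest mean TPM, and for each of the 5 the 2 genes with the highest Pearson r of log2 CPM, gene models left out. For 1 gene that the rule named, the values are not reported here. Hnrnpa0, Phykpl and marker genes were named besides. Positions are from GENCODE M21, promoters and miRNAs from RefSeq, and oligonucleotides from the study's supplement. Protein sequences were not used here.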

Additional observations from a re-analysis of the deposited data

How the results depend on the processing

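The directions of Msi2, Hnrnpa3 and Hnrnpab were the same under all 15 refits. Leaving out αGlu 1 was the only refit that moved any of the 5 genes past the threshold. Over the 6 fits with 1 library left out, the log2 fold change ranged from 0.45 to 0.80 for Msi2, from -0.33 to -0.13 for Hnrnpa3, from -0.024 to 0.104 for Hnrnpa2b1 and from -0.045 to 0.094 for Dazap1, so the last 2 changed sign without a call. Their differences in mean log2 CPM ranged from -0.025 to 0.096 and from -0.041 to 0.085. Adjusted p over all refits ranged from 0.00948 to 0.462 for Msi2 and from 0.0249 to 0.620 for Hnrnpa3. With 1 library left out the called genes numbered 0 to 2 of the 5, 0 to 6055 of all, 0 to 10 of the other hnRNP genes, 0 to 4 of the SR list, 0 to 9 of the spliceosome list, 0 to 4 of the FET list and 0 to 15 of the cytoplasmic list, each above 0 only without αGlu 1. Genes of the 5 with no overlap between groups numbered 2 to 3, and 0 by library size alone or by deposited TPM. DESeq2 called 2179 of all genes, 2 of the other hnRNP genes, 3 of the spliceosome list, 1 of the FET list and 3 of the cytoplasmic list; the cause was not tested. The uncalled log2 fold changes of Rpl27, Txlna and Gnpat changed sign too, with ranges of -0.015 to 0.050, -0.023 to 0.088 and -0.016 to 0.123.

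Libraries with the same number deviated together at a Pearson r of 0.0764, 0.0646 and 0.154 for numbers 1, 2 and 3. These did not all exceed 0.1, so the main fit did not take the numbers as pairs. Each was, however, the highest r of its library. The study also used a paired t-test for the fragment level after this transfection, so pairing remains possible. With the replicate block, 17 genes were called, none of them among the 5, and Msi2 had a log2 fold change of 0.60 with an adjusted p of 0.257.

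Depth limits Msi2 most, whose counting error was 4.96% to 8.70% per library, against at most 4.02% for the other 4 genes.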
